A study of Mus musculus with 8 samples.

Results

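The 4 libraries described here are microglia from white matter and from grey matter of wild-type mice aged 4 months, 2 libraries for each region, out of 8 libraries that also cover both regions at 21 months. They were chosen by their titles: the white matter libraries carry Ion Xpress barcodes 6 (called the first below) and 7 (the second), and the grey matter libraries barcodes 8 (first) and 9 (second). White matter was the corpus callosum, the large fibre tract that joins the hemispheres. The labels name that region for the grey matter samples as well, so regions were assigned from the titles and the tissue label. No label gives the strain, the sex or how many animals stand behind a library. It is not stated whether the 2 libraries of a region are from different mice, so a p-value below covers the spread among these libraries only, and that spread may be technical.

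Myelin was taken out on a Percoll gradient and cells were captured with magnetic beads against CD11b, and their polyadenylated RNA was read on the Ion Proton platform. CD11b is a subunit of an integrin carried by microglia, and also by neutrophils, monocytes and the macrophages of the brain's borders. Microglia are the resident macrophages of the brain. Those of white matter live among myelinated axons, whose sheaths are made by oligodendrocytes, and with age or myelin loss they are known to take on a lipid-handling, phagocytic state marked by genes such as Apoe, Spp1, Lpl and Itgax. In the young adult brain most microglia of either region carry a homeostatic signature led by P2ry12, Tmem119 and Cx3cr1.

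Levels are given in CPM, counts relative to a library's total after TMM scaling, which adjusts for the makeup of each library. The order is always first white, second white, first grey, second grey, and differences are log2 fold changes of white over grey. Totals were 4475574, 3551010, 6315782 and 4987199 counts, so that 3 counts correspond to 1.09, 0.753, 0.523 and 0.549 CPM. Genes are named as called where edgeR's quasi-likelihood test, adjusted by Benjamini-Hochberg over every gene that passed the filter, gave a p under 0.05. All 12 genes listed as defining microglia were detected in each of the 4 libraries, and their summed level was 3285, 14070, 20080 and 16720 CPM. The label of microglia thus matched the markers, at a much lower level in the first white library. All 8 libraries carried Y-linked transcripts.

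The first white matter library stood apart. Mature oligodendrocyte genes took 4.59% of its counts (95% Wilson interval 4.57 to 4.61, counting error only), against 0.148% in the second white library and 0.125% and 0.0753% in the grey ones. The transcripts CT010467.1 and AY036118, which outnumbered all others, took 38.8%, 11.1%, 20.7% and 13.3%. Across genes, its log2 CPM correlated with those of the other 7 libraries at 0.652 to 0.756, whereas the second white library correlated with the second grey one at 0.935 and with the first grey one at 0.862. The first grey library had peculiarities of its own: red blood cell genes summed to 6936, 601.6, 26090 and 1197 CPM, and pericyte and smooth muscle genes to 16.35, 603.3, 168.1 and 953.8 CPM. Both first libraries were therefore high in globin transcripts and low in mural cell transcripts, and both second libraries the reverse.

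**Figure D1:**
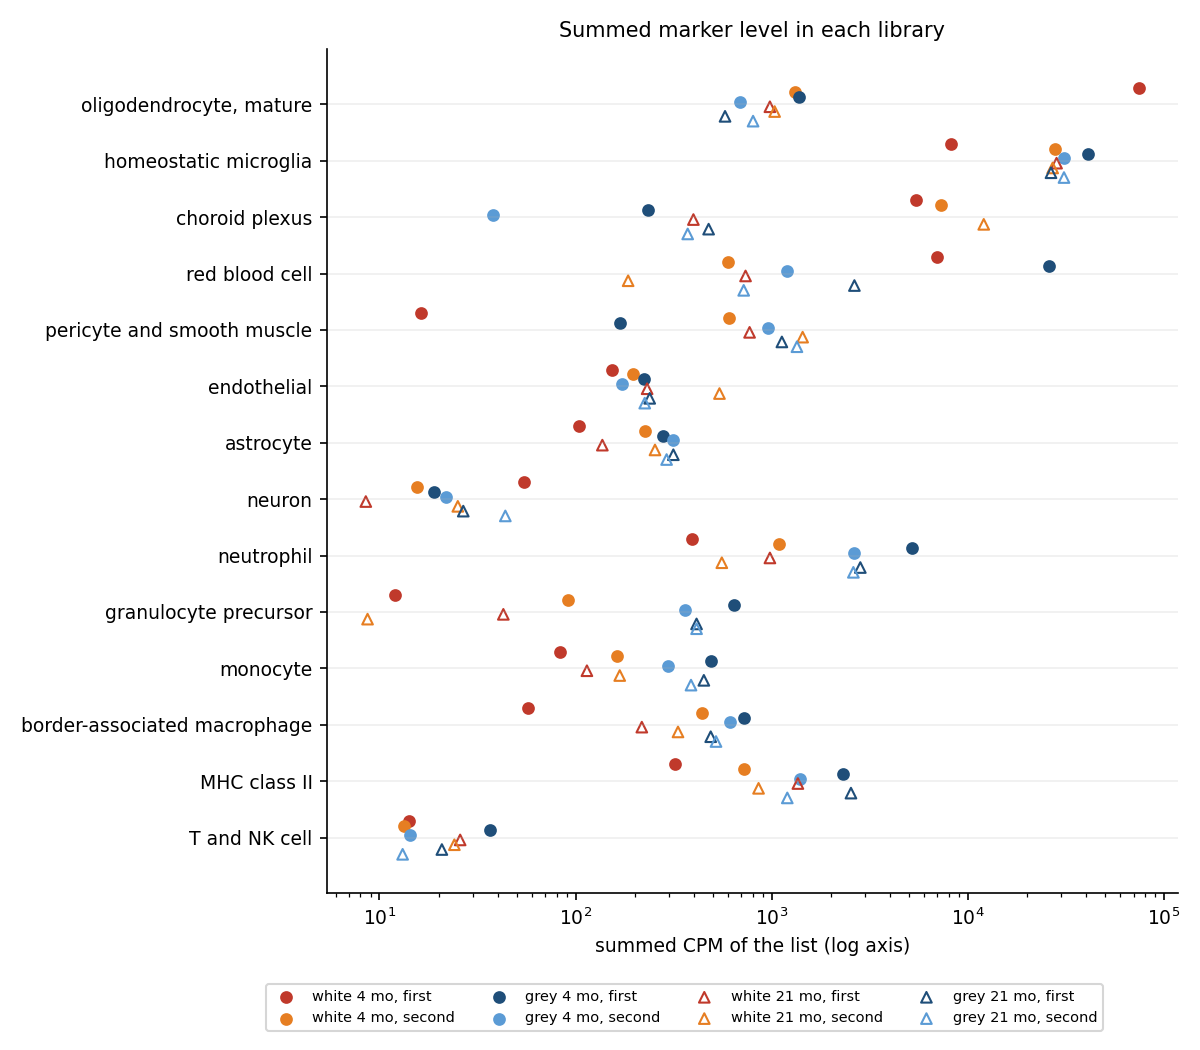
Summed CPM of marker genes (log horizontal axis) for 14 lists in each of the 8 libraries, with filled circles for 4 months and open triangles for 21 months. The first 4-month white matter library lies far to the right for mature oligodendrocyte genes (74690 CPM) and far to the left for homeostatic microglia genes (8173 CPM), and both 4-month white libraries lie left of both grey ones for neutrophil, granulocyte precursor, monocyte, border macrophage and MHC class II genes.

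With both libraries of each region, no gene was called between white and grey matter at 4 months in edgeR (0.0% of 16237 genes higher and 0.0% lower), while 1446 passed 0.05 before adjustment. With DESeq2, 464 genes were called higher in white matter (2.86%) and 51 lower (0.314%). The higher ones included 15 of 16 mature oligodendrocyte genes. Mbp was called (DESeq2 adjusted p = 0.00183), although the second white library lay within the grey range, at 136 against 183 and 50.3 CPM. A DESeq2 call with both libraries thus does not mean that each white library differed from grey matter. Leaving out the second white library, which leaves the first to stand for white matter, turned 0 edgeR calls into 4222. The spread between the white libraries weighed on the fit: the common dispersion was 0.257 over all 8 libraries and 0.126 when the first white library was left out. Each white library was therefore also set by itself against both grey ones, with the spread taken from the other 3 groups and the lone white library assumed to vary like them. The first gave 2073 genes higher (11.6% of 17859) and 2149 lower (12%) in edgeR. The second gave none (0.0% of 17509 in each direction), with 779 genes at an unadjusted p under 0.05, and in DESeq2 it gave 7 higher (0.04%) and 12 lower (0.0685%).

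Independently of any test, 2177 of the 16237 genes lay higher in both white libraries than in both grey ones (13.4%) and 2511 lay lower in both (15.5%). For the first white library alone 38.5% of genes lay above and 42% below both grey libraries, and for the second 31.3% above and 32.1% below. The median log2 difference over all genes was -0.077 for the first and 0.0052 for the second. These shares are the background against which the gene lists below are read. The lists' directions hold under TMM scaling. When libraries were scaled on homeostatic microglia genes instead, the medians over all genes became 1.94 and 0.341. Under that scaling 42.7% of all genes lay higher and 3.07% lower in both white libraries, and 53.2% lay above and 16.2% below both grey libraries in the second.

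In the first white library the genes of myelin lay far above their level in the other 3. Mbp, which compacts the myelin sheath, stood at 8228, 136, 183 and 50.3 CPM and rose by 6.11 ± 0.69 (SE; adjusted p = 0.00137, edgeR). The second white library lay within the grey range for Mbp. Of 16 mature oligodendrocyte genes, all 16 lay above both grey libraries in the first white library, against 38.5% of all genes. In the second 9 of the 16 lay above both grey libraries, against 31.3% of all genes, with a median difference of 1.29 and no call.

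Markers of other stages of the oligodendrocyte lineage were uneven. Olig1 and Olig2, transcription factors of the whole lineage, stood at 940 and 275 CPM in the first white library, against 7.53 and 1.51 CPM in the second. Enpp6 and Bcas1, which mark newly formed and early myelinating cells, reached 162 and 453 CPM there and at most 2.62 and 14.1 in the other 3. Pdgfra and Cspg4, which mark oligodendrocyte precursors, lay at only 0.363 and 1.09 CPM there, at or under the level of 3 counts. Neuron markers were near 0 as well, with Snap25, Syt1 and Nrgn at 0.727 CPM each, except the tubulin Tubb3 at 49.8 CPM. The astrocyte list summed to 103.9 CPM there, below the 225, 278.4 and 314.1 CPM of the other 3 libraries.

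Genes that make cholesterol and fatty acids, from which myelin lipid is built, followed the myelin genes. Their sum was 10490, 638.2, 597.2 and 418.7 CPM. All 22 lay above both grey libraries in the first white library, against 38.5% of all genes. Scd2, a desaturase of fatty acids, stood at 7533, 203, 158 and 105 CPM. Hmgcs1, an early enzyme of cholesterol synthesis, stood at 132, 22.8, 15.3 and 14.3 CPM and rose by 3.13 ± 0.302 in the first (adjusted p = 0.00034). In the second white library 12 of the 22 lay above both grey ones, against 31.3% of all genes, with a median difference of 0.38 and no call; under homeostatic scaling 20 did, against 53.2% of all genes.

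Genes of the respiratory chain, which makes ATP in mitochondria, were also higher in the first library. Of 27 such genes, 26 lay above both grey libraries in the first white library, against 38.5% of all genes. In the second, 5 lay above and 10 below, against 31.3% and 32.1% of all genes. Under homeostatic scaling these were 14 and 6 in the second, against 53.2% and 16.2% of all genes. The difference between the 2 white libraries was not tested. Ferritin heavy chain Fth1, which stores iron, stood at 5351, 827, 1309 and 689 CPM and rose by 2.39 ± 0.42 (adjusted p = 0.0044). Tyro3, a receptor tyrosine kinase of the TAM family, stood at 204, 2.51, 3.49 and 1.28 CPM and rose by 6.36 ± 0.515 (adjusted p = 0.000149). Its relative Mertk, the phagocytic receptor of microglia, stood at 122, 782, 656 and 881 CPM and fell by 2.68 on the log2 scale (SE 0.341, adjusted p = 0.00107). The first white library, with its high oligodendrocyte share, stood out for the respiratory chain genes, Fth1, Tyro3 and Mertk. Between the second white and first grey library, Fth1 and Tyro3 lay in the reverse order of the oligodendrocyte shares (0.148% and 0.125%). The part of oligodendrocyte RNA in these values was not tested.

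Microglial genes were correspondingly low in the first white library. As a share of all counts the homeostatic list took 3.71% and 3.38% in the grey libraries, 3.11% in the second white library and 0.502% in the first. The homeostatic list summed to 8173, 27730, 40840 and 30850 CPM. All 25 of its genes lay below both grey libraries in the first white library, against 42% of all genes. P2ry12, the purine receptor that guides microglial processes, stood at 388, 1429, 2297 and 1751 CPM and fell by 2.41 (SE 0.351, adjusted p = 0.00184). In the first white library 18 of 20 transcription factors of microglia, all 15 MHC class I genes and 18 of 21 phagocytosis receptors lay below both grey ones. The share over all genes was 42%. In bulk libraries fewer cells of a type and less RNA per cell cannot be told apart. With libraries scaled on the homeostatic list, the first white library's median differences became 0.10 for the transcription factors, 0.051 for MHC class I genes and 0.08 for phagocytosis receptors, against 1.94 for all genes.

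**Figure D2:**
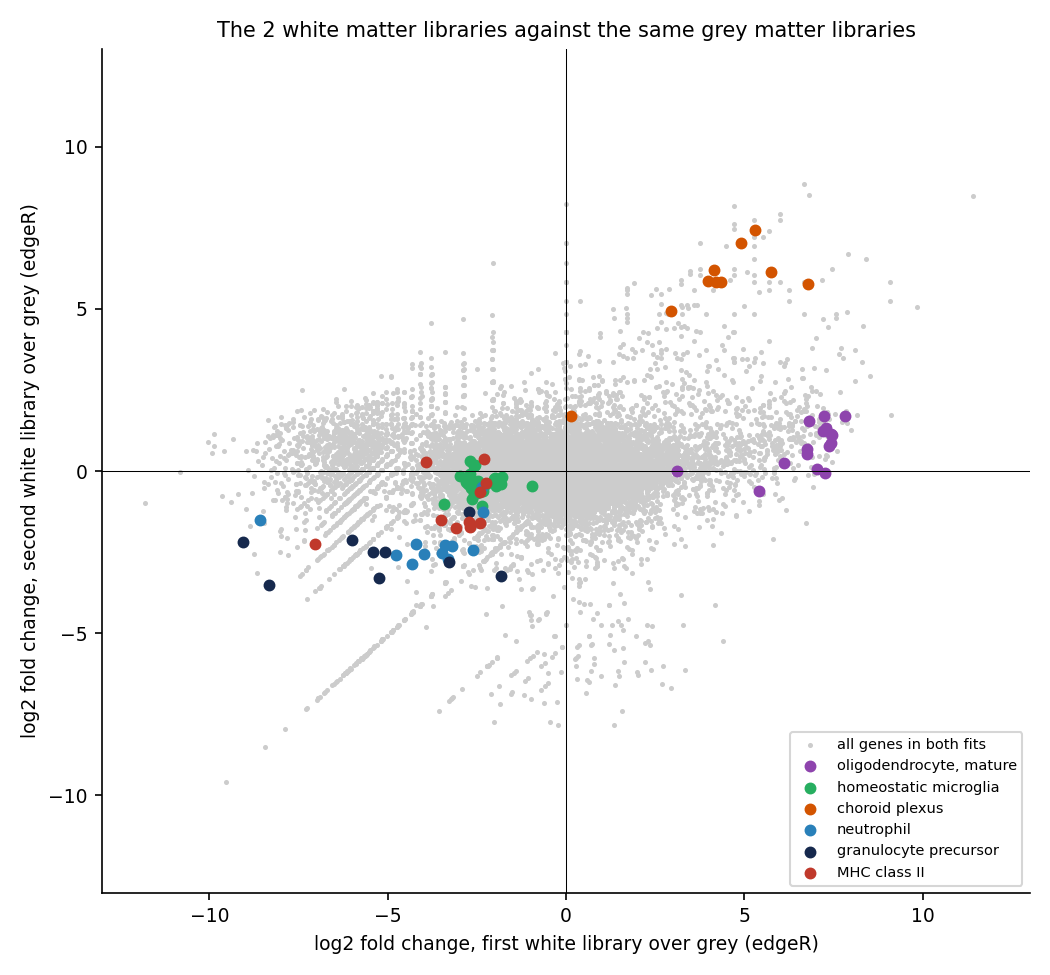
Each gene's edgeR log2 fold change over the 2 grey matter libraries, in the first white matter library (horizontal axis) and in the second (vertical axis), with all genes in grey and 6 lists in colour. Mature oligodendrocyte genes lie far to the right and homeostatic genes to the left, with smaller differences on the vertical axis, while choroid plexus genes sit at the upper right, with 1 exception near the vertical axis, and neutrophil and granulocyte precursor genes at the lower left.

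Some groups pointed the same way in both white libraries, although these differ greatly from one another. Microglial genes were among them: 11 of 12 genes defining microglia and 18 of 25 homeostatic genes lay lower in both white libraries. The lower counts given below for other myeloid genes are therefore not particular to those groups. Neutrophil genes were uniform: all 12 lay lower in both white libraries than in both grey ones, against 15.5% of all genes. Their sum was 392.5, 1089, 5211 and 2630 CPM. The median difference was -3.28 in the first and -2.29 in the second white library. In DESeq2 with both libraries 8 of the 12 were called lower, and with the second library alone 5 were, while edgeR called 8 in the first library and none in the second or in both together.

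S100a9, a calcium-binding protein abundant in neutrophils, stood at 90.5, 168, 1335 and 629 CPM. Lcn2, an iron-siderophore binding protein of their granules, stood at 18.5, 49.2, 522 and 210 CPM. Both white values lay far below the lower grey one. In the second white library Lcn2 differed by -2.87 ± 0.718 (edgeR adjusted p = 0.92; DESeq2 adjusted p = 0.00176). Cxcr2, the chemokine receptor that draws neutrophils out of the marrow, stood at 25.1, 27.6, 207 and 96.2 CPM, with the white libraries nearly equal. Its difference in the second was -2.43 ± 0.591 (edgeR adjusted p = 0.92; DESeq2 adjusted p = 0.0113). Retnlg, Mmp8 and Mmp9 were called lower there in DESeq2 too. Csf3r, the G-CSF receptor, which microglia also express, showed the smallest gap, at 157, 550, 954 and 626 CPM.

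Genes of granulocyte precursors and primary granules followed the same order. All 9 tested lay lower in both white libraries, with sums of 11.99, 91.06, 643.8 and 362.2 CPM. Mpo, the myeloperoxidase of primary granules, stood at 1.45, 5.52, 76.7 and 33.5 CPM. Its difference in the second white library was -3.29 ± 1.07 (edgeR adjusted p = 0.92; DESeq2 adjusted p = 0.0505). Ltf, the lactoferrin of secondary granules, stood at 5.45, 39.6, 286 and 167 CPM. DESeq2 with both libraries called 4 of the 9 lower: Mpo, Fcnb, Ltf and Cd177.

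Among 12 monocyte genes, 9 lay lower in both white libraries and 1 higher. Ccr2, the receptor by which monocytes enter tissue, stood at 4.72, 13, 50.8 and 41.1 CPM. Ly6c2, a surface marker of classical monocytes, stood at 11.6, 4.77, 38.9 and 20.3 CPM. The exception was Ace, at 26.9, 64.5, 12.9 and 11.5 CPM, an enzyme that choroid plexus also makes. Border-associated macrophages, which line the meninges and vessels, had 10 of 12 markers lower in both white libraries. Mrc1, the mannose receptor, stood at 4, 51.9, 138 and 89.8 CPM, and Pf4 at 0.727, 4.01, 49.4 and 15.9 CPM. Lyve1, a hyaluronan receptor, stood at 1.45, 0.753, 27.9 and 16.5 CPM, so that the second white library held no more than 3 counts. DESeq2 with both libraries called Lyve1 and Pf4 lower (adjusted p = 0.0232 and 0.0157).

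MHC class II genes, which present antigen to CD4 T cells, lay lower in both white libraries for 8 of 10. H2-Ab1 stood at 42.5, 79.8, 341 and 198 CPM and Cd74, the invariant chain, at 154, 264, 1017 and 601 CPM. The remaining pair, H2-DMb2 and H2-Ob, lay above both grey libraries in the second white library, at 13.5 and 35.9 CPM. H2-Ab1, H2-Eb1 and H2-Oa were called lower with both libraries in DESeq2 (adjusted p = 0.0228, 0.0219 and 0.0397), and no gene of the list with the second library alone. T and NK cell genes were scarce in all 4 libraries and summed to 14.17, 13.3, 36.8 and 14.26 CPM.

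**Figure D3:**
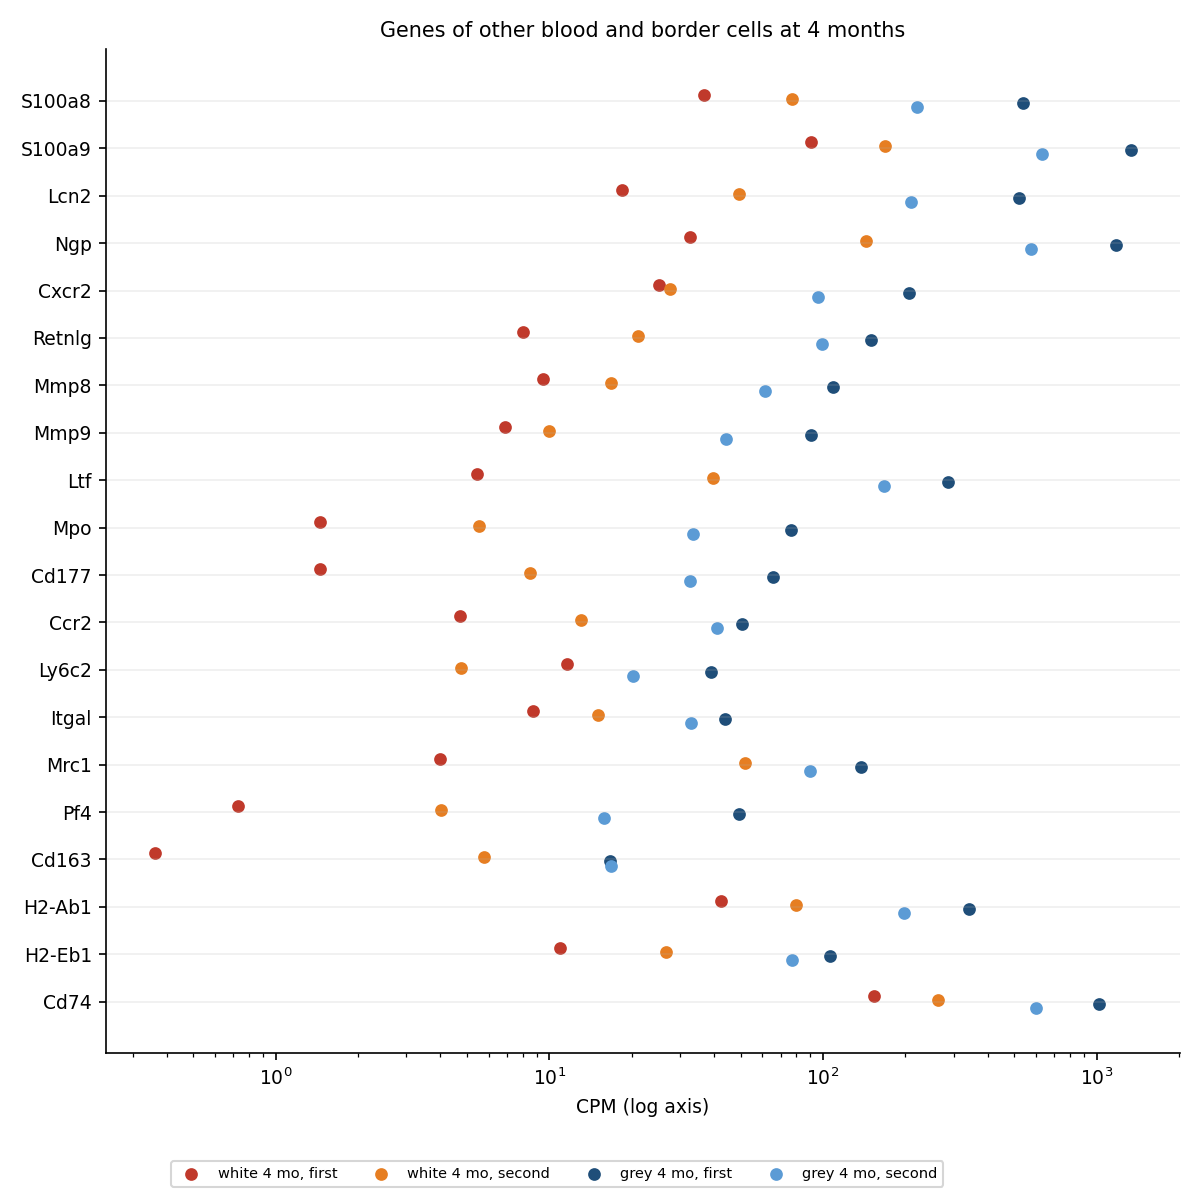
CPM (log horizontal axis) of 20 genes of neutrophils, granulocyte precursors, monocytes, border macrophages and antigen presentation in the 4 libraries of 4 months, 1 point a library. In every gene shown both white points lie left of both grey points; the first grey library is the highest for all but Cd163.

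Because the white libraries held fewer microglial counts, the same lists were also set per 1000 counts of homeostatic microglia genes. Neutrophil genes then gave 48 and 39.3 in white matter against 128 and 85.3 in grey. Granulocyte precursor genes gave 1.47 and 3.28 against 15.8 and 11.7, and MHC class II genes 39.5 and 26.2 against 56.3 and 45.3. Border macrophage genes gave 6.98 and 16 against 17.6 and 19.8, with the second white library close to the grey ones. Monocyte genes overlapped, at 10.1 and 5.88 against 12.1 and 9.63. Under homeostatic scaling 11 of 12 neutrophil, 8 of 9 granulocyte precursor and 8 of 10 MHC class II genes lay lower in both white libraries. So did 6 of 12 monocyte and 6 of 12 border macrophage genes, against 3.07% of all genes. Microglial genes did too on that scale, for 6 of 12 defining and 10 of 25 homeostatic genes. The monocyte and border macrophage counts were thus no higher than that of the genes defining microglia. Red blood cell genes did not follow the region on the CPM scale, being higher in the first white library (6936 CPM) than in the second grey one (1197 CPM). Their part in the neutrophil level was not tested.

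Cell cycle genes lay lower in both white libraries for 10 of 19. Mki67, a protein of dividing nuclei, stood at 4.36, 26.3, 48.5 and 56.3 CPM, and Top2a at 1.45, 4.77, 14.5 and 15.9 CPM. None was called in edgeR or DESeq2 with the second library, where Mki67 differed by -0.98 ± 0.316 (edgeR adjusted p = 0.92). With homeostatic scaling 4 of the 19 lay lower in both, against 3.07% of all genes and 10 of 25 homeostatic genes. Stmn1, a tubulin-binding protein on the same list, went the other way in the first white library, at 298, 8.28, 8.9 and 2.74 CPM.

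Above both grey libraries stood the genes of the choroid plexus, the secretory epithelium of the ventricles. Of 10 such genes, 9 lay higher in both white libraries, against 13.4% of all genes. Their sums were 5436, 7296, 235.1 and 38.03 CPM. Ttr, the thyroxine carrier that this epithelium secretes, stood at 1974, 5269, 171 and 17.6 CPM. Enpp2, the enzyme autotaxin, which mature oligodendrocytes express too, stood at 3338, 1590, 49 and 10.2 CPM. Prlr, the prolactin receptor, stood at 25.1, 106, 1.4 and 0.183 CPM. DESeq2 with both libraries called 8 of the 10 higher, among them Ttr (5.32 ± 1.26, adjusted p = 0.00219). EdgeR called none with both libraries. With the second library alone neither tool called any, although edgeR called Clic6 and Prlr when either 21-month white library was left out.

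Further genes with this pattern were among those with the widest gap between white and grey: Cldn2, Sostdc1, Car12, Ppp1r1b, Col9a3 and Foxj1, the transcription factor of motile cilia. Cldn2, a tight junction protein of epithelia, stood at 13.4, 41.6, 0.174 and 0 CPM. Igf2, a growth factor made by choroid plexus and meninges, stood at 42.2, 170, 8.55 and 11.3 CPM. Meningeal fibroblast genes, a list that holds Igf2, summed to 53.42, 229, 20.06 and 29.8 CPM, and 8 of 9 lay above both grey libraries in the second white library. Among them Col1a1, a chain of type I collagen, stood at 0, 4.26, 0 and 0.731 CPM and the proteoglycan Dcn at 0, 5.02, 0.698 and 1.65 CPM. At 21 months the choroid plexus sum was high in 1 of the 2 white libraries only, at 398.8 and 12060 CPM against 476.8 and 372.9 CPM in grey matter, so it did not follow region at that age.

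The oligodendrocyte sum of the second white library, 1316 CPM, lay between those of the grey libraries, 1372 and 686.7 CPM. Its oligodendrocyte share of all counts lay above both, at 0.148% against 0.125% and 0.0753%. So did the sum per 1000 counts of homeostatic microglia genes, at 47.5 against 33.6 and 22.3. The choroid plexus and meningeal fibroblast sums of the second white library, 7296 and 229 CPM, lay far above those of the grey libraries. The part of oligodendrocyte, choroid plexus or meningeal RNA in the values below was not tested. A few genes were highest in the second white library at 4 months and were also high in both white libraries at 21 months. Spp1, the secreted phosphoprotein osteopontin, stood at 2.54, 21.8, 2.79 and 1.83 CPM. Its 87 counts compare with 7, 16 and 10 in the other 3 libraries. The difference in the second library was 3.24 ± 0.336 in edgeR (adjusted p = 0.111) and 3.27 ± 0.482 in DESeq2 (adjusted p = 1.16e-07). At 21 months Spp1 stood at 348 and 280 CPM in white matter against 4.95 and 4.47 CPM in grey.

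Lpl, the lipoprotein lipase that frees fatty acids from lipoproteins, stood at 4.36, 30.4, 2.44 and 5.67 CPM. The difference in the second library was 2.91 ± 0.549 in edgeR (adjusted p = 0.92), and DESeq2 called it (adjusted p = 0.00176). At 21 months it stood at 312 and 233 CPM in white matter against 11.1 and 5.02 CPM in grey. A further 3 genes, chosen after their values were seen, shared the order. Etl4 stood at 0.363, 19.1, 1.05 and 3.29 CPM, Rai14, an actin-associated protein, at 6.54, 19.3, 0.523 and 2.38 CPM, and Ptchd1, a membrane protein with a patched domain, at 1.09, 10.8, 0.174 and 0.914 CPM. DESeq2 gave all of them an adjusted p of 0.00529 in the second library. In 21-month white matter they reached 50.9 and 53.6, 47.3 and 53.1, and 27 and 22.6 CPM.

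The other genes that DESeq2 called higher in the second library, Ppp1r1b and Strip2, tracked the choroid plexus genes instead: Strip2 stood at 2.84 and 39.2 CPM in 21-month white matter, where the choroid plexus sum was low and high. Of the 12 genes called lower, 5 were on the neutrophil list: Lcn2, Cxcr2, Mmp8, Mmp9 and Retnlg. Pglyrp1, a granule protein of neutrophils, and Anxa1, Cd24a and Slfn4, all known in myeloid cells, were called beside them. Mir6236, a microRNA gene, was called too but was highest in the first white library, at 2020, 130, 637 and 424 CPM. The abundant transcripts CT010467.1 and AY036118 lay in the same order over the 4-month libraries. C3, the central component of complement, was called lower as well, at 4.36, 15.3, 90 and 60.3 CPM (-2.27 ± 0.46 in edgeR, adjusted p = 0.92; DESeq2 adjusted p = 0.00647). At 21 months the regions overlapped for C3, at 110 and 80.2 CPM in white and 95.9 and 56.4 CPM in grey matter. Gm11505, a predicted gene, had 0 counts in both white libraries and 140 and 95 in the grey ones. It was at least 23.1-fold lower in the second white library than the lower grey one, taking 3 counts as the limit of 0 counts.

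How far the second white library differed depended on which grey library it met. In the fits against a single grey library neither 4-month group held a replicate, so the spread came from the 21-month libraries alone. The calls of those fits therefore do not rest on variation between 4-month libraries. Against the second grey library alone, edgeR called 4 genes higher (0.0235% of 17014) and 1 lower (0.00588%): Spp1, the oligodendrocyte genes Fa2h and Mobp and the predicted gene Gm20417, and below them Gm11505. Against the first grey library alone it called 960 higher (5.65% of 16981) and 302 lower (1.78%). Those included Spp1, Lpl, Etl4, Rai14 and Ptchd1 among the higher and C3, Lcn2, Cxcr2 and Mmp9 among the lower. They also included the pericyte genes Pdgfrb, Rgs5, Abcc9 and Vtn, which are scarce in the first grey library. Leaving out the first or the second 21-month white library, which enter the fit only through the spread, gave 12 (0.07% of 17134) and 10 (0.0583% of 17146) genes higher. Both sets held Clic6 and Prlr of the choroid plexus list, and Cldn2, Car12, Sostdc1 and Igf2. Spp1 was called in each of these 4 fits, with adjusted p of 0.0102, 0.000679, 0.0388 and 0.044, and in no fit that left out a 21-month grey library.

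**Figure D4:**
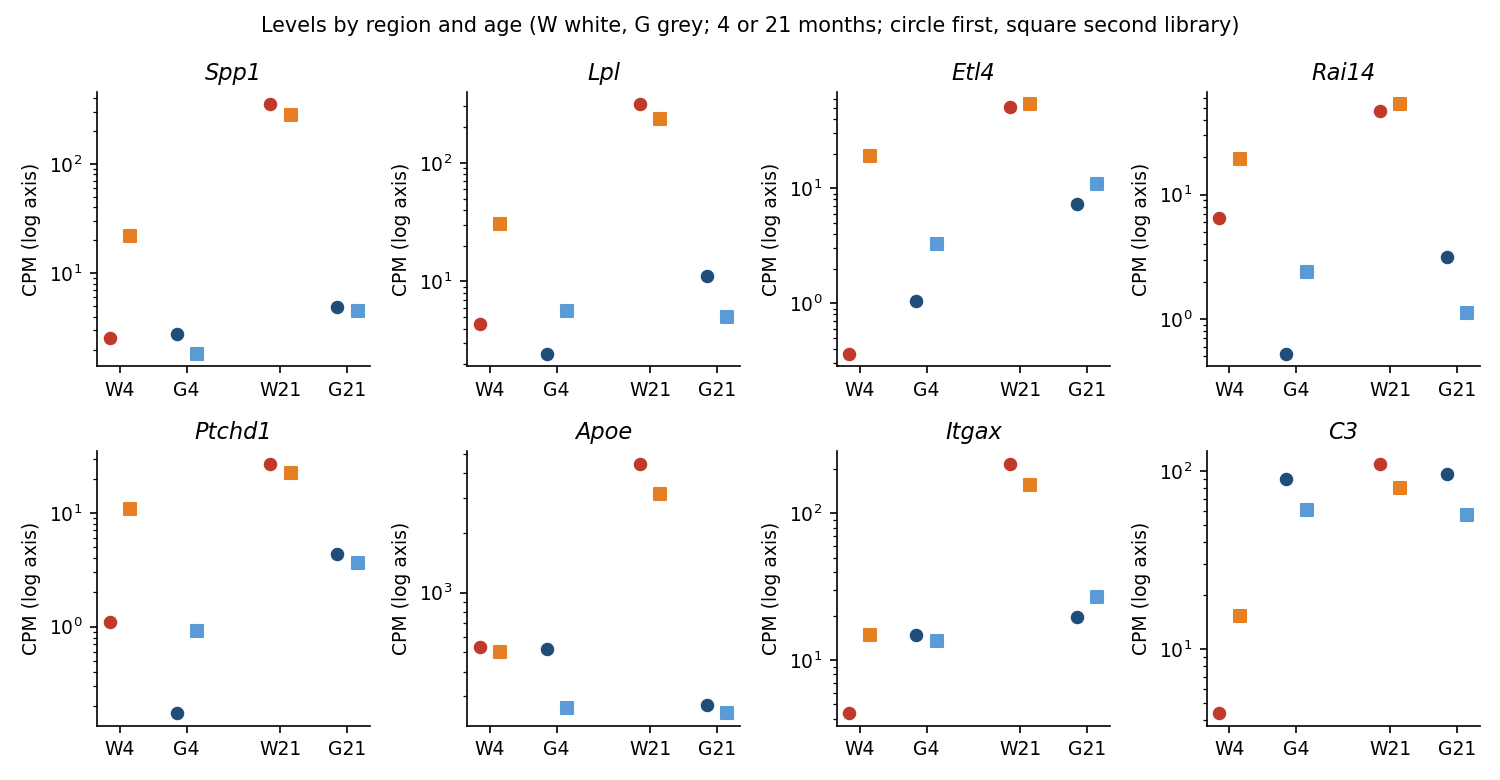
CPM (log vertical axis) of 8 genes by region and age, W for white and G for grey matter, with a circle for the first and a square for the second library of each group. At 4 months the second white library lies above the other 3 for Spp1, Lpl, Etl4, Rai14 and Ptchd1 but not for Apoe or Itgax, and C3 lies lowest in the 2 white libraries of 4 months.

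Other genes of the disease-associated state were mixed in the second white library. Apoe, the main lipid carrier of the brain, stood at 532, 500, 521 and 262 CPM, so both white libraries lay close to the first grey one and above the second. Itgax, which encodes CD11c, stood at 4.36, 14.8, 14.8 and 13.5 CPM. Cst7 stood at 1.82, 5.52, 9.77 and 3.11 CPM and Clec7a at 8.36, 29.6, 37.7 and 20.7 CPM. Axl, a TAM receptor, had the order of Spp1: it was highest in the second white library at 4 months, at 12.4, 80.8, 29.8 and 56.7 CPM, and stood at 387 and 277 CPM in white against 65.4 and 63.1 CPM in grey matter at 21 months. Of the 30 genes of the list, 9 lay above and 7 below both grey libraries in the second white library, against 31.3% and 32.1% of all genes, and the median difference was -0.089. Under homeostatic scaling 18 lay above and 4 below, against 53.2% and 16.2% of all genes, with a median of 0.267 against 0.341. Gpnmb, a glycoprotein of lipid-laden macrophages, stood at 0.363, 3.51, 0.349 and 0.183 CPM, which is 14 counts in the second white library and 1 or 2 counts in each of the others; at 21 months it stood at 74 and 113 CPM in white and 1.58 and 0 CPM in grey matter.

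Homeostatic genes lay lower in the second white library than in both grey ones for 18 of 25, against 32.1% of all genes, with a median difference of -0.4 and no call. P2ry12 differed by -0.48 ± 0.302, Tmem119 by -0.53 ± 0.297 and Cx3cr1, the fractalkine receptor, by -0.32 ± 0.303, each with an edgeR adjusted p of 0.92. Fcrls, a microglial Fc receptor-like protein, differed more, at 87.6, 446, 1080 and 751 CPM (-1.02 ± 0.323). The first grey library was the highest of all 8 for the summed list, at 40840 CPM, and the second white library differed less from the second grey one (27730 against 30850 CPM). Under library totals without TMM, 17 of the 25 lay lower, against 3904 of all 16237 genes. On the homeostatic scale 11 of the 25 did, against 16.2% of all genes, and there the list's sum is fixed.

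Inflammatory genes were mixed in the second white library. Of 25, 10 lay above and 6 below both grey libraries, against 31.3% and 32.1% of all genes. Under homeostatic scaling 14 and 5 did, against 53.2% and 16.2% of all genes. Tnf stood at 117, 359, 216 and 165 CPM, Ccl4 at 48.3, 211, 123 and 80.8 CPM and Ccl3 at 181, 686, 541 and 456 CPM, whereas Il1b stood at 51.6, 150, 301 and 170 CPM. None was called. In the TGF-beta pathway, which maintains microglial identity, 11 of 17 genes lay above both grey libraries in the second white library and 2 below. The shares of all genes were 31.3% and 32.1%. Under homeostatic scaling 14 lay above and 1 below, against 53.2% and 16.2% of all genes. Itgb8, the integrin subunit that activates TGF-beta, stood at 92.3, 27.6, 0.698 and 2.74 CPM, and at 21 months at 7.33 and 47.7 CPM in white and 4.75 and 5.02 CPM in grey matter. At 21 months the second white library alone was high for both Itgb8 and choroid plexus genes. At 4 months Itgb8 was higher in the first white library, whereas the choroid plexus sum was higher in the second, at 7296 against 5436 CPM. The part of choroid plexus RNA in the Itgb8 level was not tested. Tgfbr1, the type I receptor, stood at 177, 1384, 982 and 1284 CPM, and Skil, a feedback inhibitor of the pathway, at 181, 1128, 708 and 845 CPM.

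Complement genes of microglia lay lower in both white libraries for 8 of 14. C1qc, a chain of the C1q complex, stood at 508, 1138, 2896 and 1437 CPM and C1qa at 156, 492, 1023 and 596 CPM. For these the second white library lay closer to the second grey library than the grey libraries lay to each other. The same held for interferon-stimulated genes as a list, whose sums were 328.9, 679.3, 933.8 and 677 CPM. With homeostatic scaling 3 of the 14 complement genes lay lower in both, against 3.07% of all genes and 10 of 25 homeostatic genes.

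**Figure D5:**
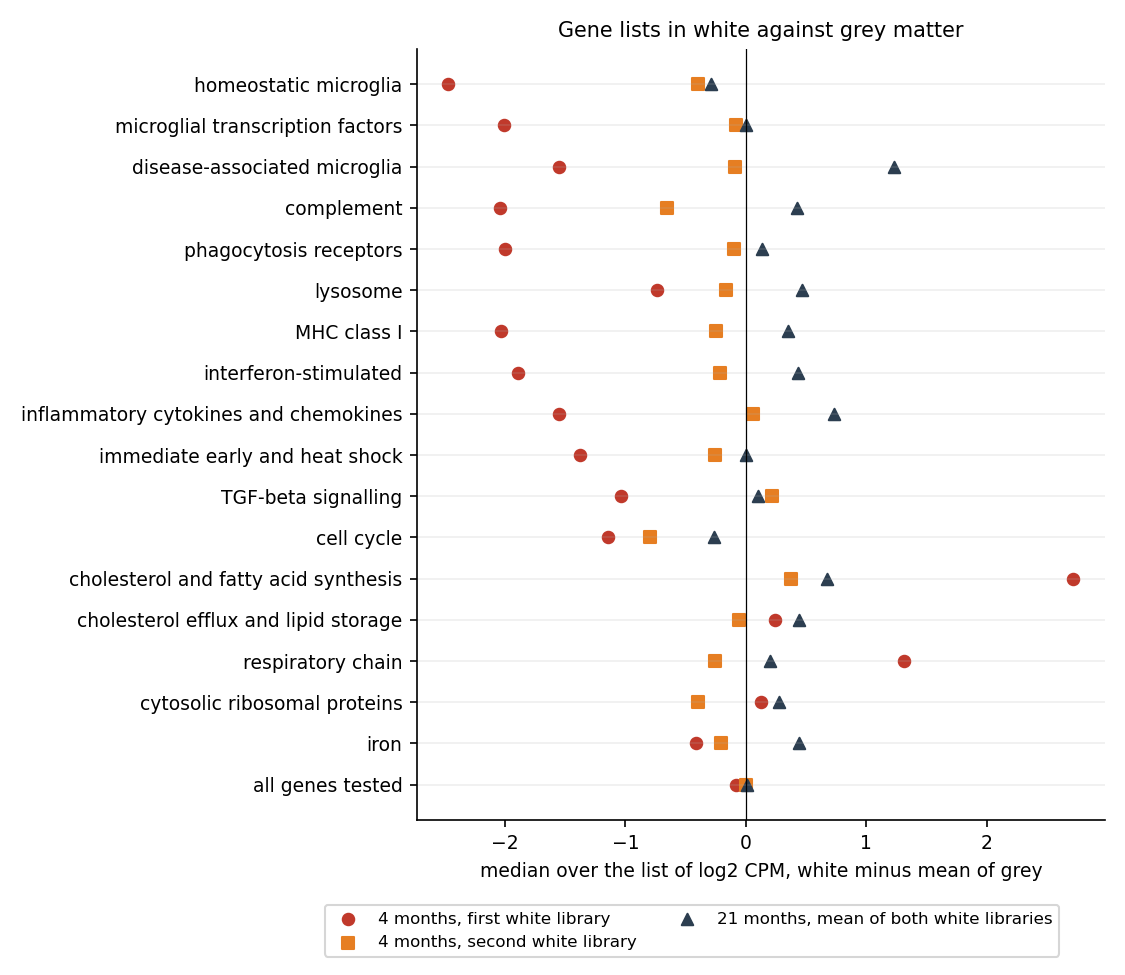
Median over each of 17 gene lists, and over all genes tested, of the log2 CPM difference between white and mean grey matter, for the first and the second 4-month white matter library and for the mean of both 21-month white libraries. Over the lists plotted the second library spans -0.79 to 0.38, the first spans -2.47 to 2.72, and at 21 months the disease-associated list is the farthest from 0, at 1.23.

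The region difference was then set against that at 21 months. No gene was called for the change in the difference in edgeR (0.0% of 16237 in each direction; 455 at an unadjusted p under 0.05), and DESeq2 called 2 genes with a larger difference at 21 months (0.0123%) and 18 with a smaller one (0.111%). The 2 were Apoe (3.42 ± 0.651, adjusted p = 0.000772) and Itgax (3.50 ± 0.869, adjusted p = 0.0356). The 18 included Aspa and Myrf, genes of oligodendrocytes that were high in the first 4-month white library. Without the second 4-month white library edgeR called 1380 genes with a larger (7.73% of 17859) and 1042 with a smaller difference (5.83%). Leaving out the first gave no edgeR call; the change for Spp1 was then 2.80 ± 0.463 and that for Apoe 3.50 ± 0.589 (adjusted p = 1.0 each). All 30 disease-associated genes lay higher in both white libraries than in both grey ones at 21 months, where 20.9% of all genes did. At 4 months 4 of the 30 did, close to the 13.4% of all genes. Under homeostatic scaling 14 of the 30 did at 4 months, against 42.7% of all genes.

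The order at 4 months was then compared with that at 21 months. Of the 2511 genes lower in both white libraries at 4 months, 821 were lower in both at 21 months (32.7% of the former and 26% of the latter), where 19.5% of all genes were, and 350 were higher in both. Of the 2177 higher at 4 months, 510 were higher at 21 months (23.4% and 15.0%), close to the 20.9% of all genes, and 252 lower. Neutrophil genes recurred for 11 of 12 and granulocyte precursor genes for 9 of 9, with sums at 21 months of 979.2 and 556.7 CPM against 2831 and 2609 CPM for the former. Of the genes lower at 4 months, 8 of 9 monocyte, 7 of 10 border macrophage and 4 of 8 MHC class II genes recurred, against the 32.7% above. Microglial genes recurred as well, for 6 of 11 defining and 11 of 18 homeostatic genes. Of the genes higher at 4 months, 9 of 12 for cholesterol and fatty acid synthesis recurred and 3 of 9 of the choroid plexus, against the 23.4% above. The 4 libraries of each age are separate, so these overlaps share no sample.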

How the data were processed

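The authors deposited a table of estimated counts per gene and library, which were rounded to whole numbers here, and a table of normalised signal, which the authors made from the same counts; per the submitters' processing notes Partek and DESeq2 were used. No source used here gives the aligner, build, annotation or strandedness, so coordinates are not printed and near-identical or overlapping genes cannot be separated. All deposited signal values matched the rounded counts after scaling each library by its own factor (tolerance 1e-06), and this table served 1 alternative.

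Counts were filtered with filterByExpr, scaled by TMM and fitted with edgeR 4.0.16 (robust quasi-likelihood, R 4.3.3) to all 8 libraries by group, or to 7 of them, and p-values were adjusted by Benjamini-Hochberg over all genes tested. Standard errors come from the F statistic. Log2 CPM used a prior count of 2, which understates differences of low genes. DESeq2 1.42.0, limma 3.58.1, other scalings and filters, a replicate block and leaving out each library were alternatives. The smallest two-sided exact permutation p of 2 libraries against 2 is 0.333. The fits were tested on simulated counts.

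The libraries, 40 gene lists and rules were chosen with earlier results of these data known. Named genes were the 12 with the widest gap each way between the libraries of the 2 regions (mean count of at least 50 in the higher group), the 10 largest differences each way for the second library, the 10 genes highest in the first over the second, up to 4 per list, and a fixed set of microglial and marker genes. Others among the genes named were chosen after their values were seen, among them Etl4, Rai14, Ptchd1, Strip2, Anxa1, Cd24a, Gm11505, Mir6236, Gm20417, Fa2h, Myrf and the further list members given as examples.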

Additional observations from a re-analysis of the deposited data

Results flagged for a closer look

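Lists whose sums lay in opposite order at the 2 ages were noted: both white libraries below both grey ones at 4 months and both above at 21 months. Complement genes did so, with a log2 ratio of white over grey sums of -1.11 at 4 months and 0.37 at 21 months, a shift of 1.49. Phagocytosis receptors gave -0.88 and 0.21, a shift of 1.09. T and NK cell genes, 8 of 12 of which passed the filter, gave -0.89 and 0.56, a shift of 1.45. Their white sums at 4 months, 14.17 and 13.3 CPM, lay close to the second grey one, 14.26 CPM, and the first grey one was 36.8 CPM. Per 1000 counts of homeostatic microglia genes the regions overlapped at 4 months for the other lists. Complement genes then gave 248 and 234 in white against 277 and 231 in grey matter. Phagocytosis receptors gave 162 and 166 against 141 and 166. The differences were not tested. For complement and phagocytosis receptors the first white library, with its low homeostatic sum of 8173 CPM, was the lowest of the 4 at 4 months (2025 and 1324 CPM), and its part in these shifts was not tested.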

How the results depend on the processing

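Counts of called genes depended on the tool, the filter and single libraries. For both libraries of each region, where edgeR called 0, DESeq2 called 515 and the fit without a filter on low counts 1113; for the second white library these were 19 and 148, and for the change with age 20 and 470. Leaving out 1 library at a time gave 0 to 4222 calls for both libraries, the highest without the second white library, 0 to 1262 for the second library, the highest without the second grey library, 3066 to 6298 for the first library, and 0 to 2422 for the change with age, the highest without the second white library. The 4222 calls of the first library ranged from 3954 with a replicate block to 5399 without the filter among the other settings. The replicate block gave 0 calls for both libraries, for the second library and for the change with age. The block had little basis, since nothing ties equal numbers to a shared animal or batch; same-numbered libraries deviated together at 0.415 between the 4-month groups and at -0.141 to 0.149 elsewhere. Scaling on homeostatic genes moved the genes higher in both white libraries from 2177 to 6938 and those lower in both from 2511 to 498; without the filter 4030 were lower. Among 185 named genes that scaling turned the sign of 34 differences of the mean and 11 of the second library; the other scalings turned at most 5. With 2 libraries a group and 1 of them rich in oligodendrocyte RNA, edgeR calls rest on very few libraries, and genes under about 3 counts a library cannot be compared.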

Other observations

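Immediate early and heat shock genes, which respond within minutes to the handling of cells, lay lower in both 4-month white libraries for 13 of 26 genes, against 15.5% of all genes, and higher for 1. Their sums were 15710, 37530, 48280 and 38990 CPM in the first white, second white, first grey and second grey library. Fosb stood at 1117, 3321, 4553 and 3867 CPM, Klf4 at 223, 507, 918 and 632 CPM, and Hspa1a at 320, 897, 1454 and 1058 CPM. None was called in the second library, where Klf4 differed by -0.59 ± 0.348 (edgeR adjusted p = 0.92). The second white library lay closer to the second grey than the grey libraries lay to each other for the list's sum. With libraries scaled on homeostatic genes 0 of the 26 lay lower in both, against 3.07% of all genes, and 10 higher, against 42.7%.

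Of 12 iron genes 1 lay above both grey libraries in both white ones, a smaller share than the 13.4% of all genes. It was Slc11a2, the iron transporter DMT1, at 99.6, 113, 59.8 and 67.8 CPM. At 21 months it stood at 133 and 93.1 CPM in white and 63.2 and 55 CPM in grey matter, so its order was the same at both ages. Under library totals without TMM 0 of the 12 lay above in both at 4 months, against 1847 of all 16237 genes. Slc40a1, the iron exporter ferroportin, lay in the reverse order at both ages, at 9.45, 76.3, 92.4 and 106 CPM and then at 33.3 and 35 against 77.2 and 62.2 CPM. Neither was called in the second library.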
